A study of Caenorhabditis elegans with 11 samples.

Results

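The 6 pud genes of Caenorhabditis elegans, pud-1.1, pud-1.2, pud-2.1, pud-2.2, pud-3 and pud-4, were followed across 11 Affymetrix arrays of whole adult hermaphrodites. They were chosen by name from earlier results of these data, because their signals were low under skn-1 RNAi, the knockdown of skn-1 by RNA interference. In particular pud-3 was the largest decrease of that group against control. Of 18217 genes that the array's annotation names, these 6 were measured by 4 of 22548 probe sets, and all 4 passed the filter on dim probe sets. One probe set was shared by pud-1.1 and pud-1.2 and another by pud-2.1 and pud-2.2, so the genes within each pair could not be told apart. They are called the pud-1 and pud-2 probe sets here. The probe sets of pud-3 and pud-4 were annotated to 1 gene each.

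PUD stands for proteins that are up-regulated in daf-2 mutants, long-lived worms with a weakened insulin-like receptor. Loss of that receptor's signal releases the transcription factor DAF-16, a FOXO protein. PUD-1 and PUD-2 are small related proteins that join into a heterodimer and are abundant in the intestine and the hypodermis, the worm's epidermis. PUD-3 and PUD-4 are relatives that do not form such dimers, and the molecular function of the family is little understood. SKN-1, the factor targeted by the RNAi, is the worm's Nrf protein and controls many detoxification genes.

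Worms of 3 groups were compared, skn-1 RNAi with oxygen (n = 3 arrays), oxygen (n = 4) and control (n = 4). All were 3 days old and sterile and had been raised at 25°C from the first larval stage. Both exposed groups spent 6 hours in 99% oxygen at 40 PSI and 20°C, whereas the control worms had no stress. No exposure temperature is given for the control worms. Oxygen, pressure and a change of temperature thus cannot be told apart, and the words under oxygen stand for the whole exposure. The sample labels name the strain TJ1090 and the design text TJ1060, so the genotype is not settled, and the way the RNAi was delivered is not stated. Worms with skn-1 RNAi but without oxygen are not analysed here, so RNAi and oxygen cannot be told apart where that group is set against control. No label ties the arrays of a group to separate cultures. The p-values cover the spread between those arrays, which may be technical.

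The deposited values are MAS5 signals, 1 linear intensity per probe set and array, with total signal of 6863652 to 9138002 per array. The arrays fell into 2 sets by their poly-A spike-in probe sets, a division found in the values and stated in no label. Set 1 held control 1 and 2 and oxygen 1 and 2, and set 2 held the other 7, with all 3 skn-1 RNAi arrays among them. When group was accounted for, signals of 6828 of the 15389 tested probe sets differed from one set to the other, 5669 of them higher in set 2. Values within sets therefore stand beside the changes of the pud probe sets. Most other values, among them those of skn-1, gst-4, the tissue markers and the like genes, pool both sets. The 3 skn-1 probe sets averaged 311 ± 65.4, 333 ± 71.7 and 347 ± 102 in skn-1 RNAi with oxygen (SD, n = 3). They averaged 415 ± 168, 271 ± 202 and 510 ± 118 in oxygen and 461 ± 233, 271 ± 215 and 535 ± 174 in control (SD, n = 4 each), so the labelled knockdown was not clear from them. Control signals ran from 251.0 to 671.4, 78.2 to 484.6 and 442.2 to 796.7 on these probe sets. The oxygen and control means pool both sets and are not like for like with the skn-1 RNAi arrays of set 2. The knockdown within set 2 was not tested. The signal of gst-4, a glutathione S-transferase gene controlled by SKN-1, averaged 1240 ± 516 in skn-1 RNAi with oxygen, 4528 ± 522 in oxygen and 365 ± 283 in control.

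The probe set of pud-1, the gene pair for one partner of the PUD heterodimer, had signals of 520, 292 and 1373 in skn-1 RNAi with oxygen. Its signals in oxygen were 2339, 2927, 1048 and 2008. In control they were 4258, 4222, 5347 and 10005. Every oxygen array lay below every control array, while skn-1 RNAi array 3 lay above oxygen 3, so those groups overlapped.

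The probe set of pud-2, the gene pair for the other partner, had signals of 480, 354 and 1764 in skn-1 RNAi with oxygen. In oxygen it had 4503, 5369, 1833 and 2981, and in control 5857, 5483, 5878 and 7705. The groups did not overlap in any of the 3 comparisons, but skn-1 RNAi array 3 reached nearly to oxygen 3, and oxygen 2 nearly to control 2.

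The probe set of pud-3 had signals of 16.7, 19.3 and 43.8 in skn-1 RNAi with oxygen. In oxygen it had 142.4, 671, 69.5 and 64.2, and in control 1302, 1251, 1552 and 2381. All 3 groups were separate. On skn-1 RNAi arrays 1 and 2 the signal was under the 40th percentile of the array (38.3 and 38.5), so the size of the decrease in that group rests on dim values.

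The probe set of pud-4 had signals of 44.8, 96.2 and 270 in skn-1 RNAi with oxygen. In oxygen it had 1351, 1995, 1419 and 719, and in control 1088, 1058, 944 and 1173. All 3 skn-1 RNAi arrays were below all other arrays, whereas the oxygen arrays lay on both sides of the control arrays.

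**Figure D1:**
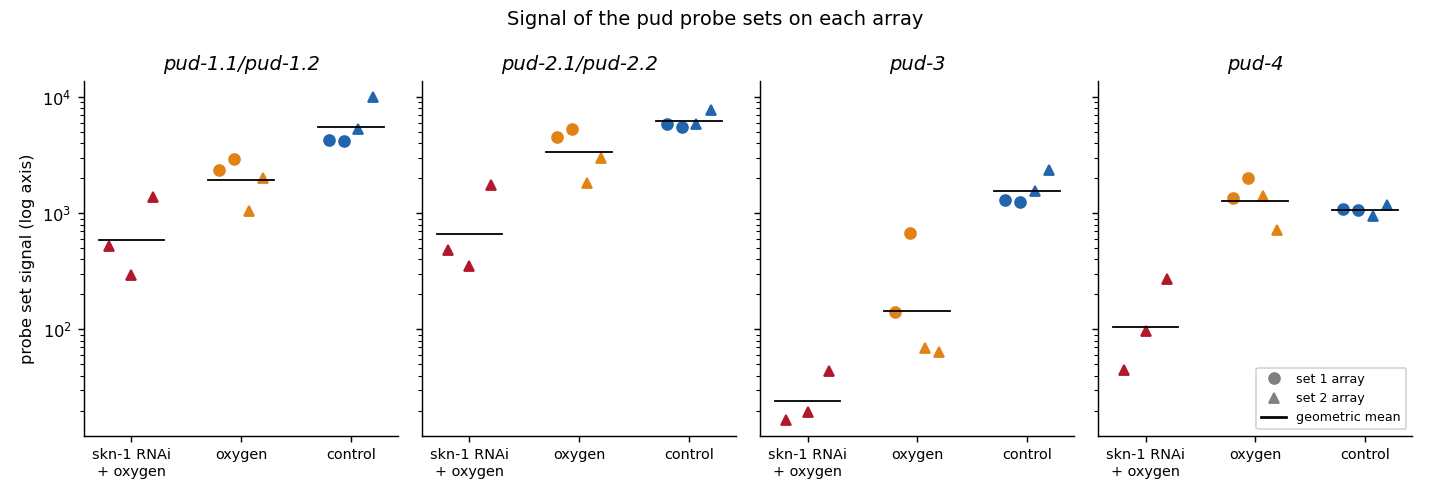
Signal of the 4 pud probe sets on each array, on a logarithmic axis, for skn-1 RNAi with oxygen (3 arrays), oxygen (4) and control (4). Circles are set 1 arrays, triangles set 2 arrays and lines geometric means. For pud-3 the 3 groups are separate, and for pud-4 the oxygen arrays (719 to 1995) lie around the control arrays (944 to 1173).

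Oxygen against control asked how the genes answered the exposure itself, and it is the comparison that the choice of the genes did not name. It shares its control arrays with the one that did, so its p-values for the pud probe sets are not independent of that choice. Under oxygen pud-3 fell, and the other 3 probe sets did not pass the test. The signal of pud-3 averaged 237 ± 291 in oxygen and 1621 ± 523 in control (SD, n = 4 each), with geometric means 10.9-fold apart (log2 −3.45 ± 0.68 SE, limma adjusted p = 0.0202). It was lower in 4 of 4 oxygen arrays than in any control array, and it was the 10th largest decrease among the 15389 tested probe sets.

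The pud-1 probe set averaged 2081 ± 786 in oxygen and 5958 ± 2748 in control (log2 −1.51 ± 0.51, limma adjusted p = 0.166). The pud-2 probe set averaged 3671 ± 1574 in oxygen and 6231 ± 999 in control (log2 −0.87 ± 0.50, limma adjusted p = 0.512). Within set 1 the geometric means in oxygen were 1.62-fold lower for pud-1 and 1.15-fold lower for pud-2. Within set 2 they were 5.04- and 2.88-fold lower (n = 2 and 2 in each set). For pud-4 the means were 1371 ± 522 in oxygen and 1066 ± 94.4 in control (log2 0.28 ± 0.50, limma adjusted p = 0.924), and the sign turned after median centring (−0.084) and within set 2 (−0.059). Missing the threshold does not show that the 3 probe sets kept their level.

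Thus 1 of 4 pud probe sets was called lower under oxygen, where 0.539% of all tested probe sets were. The groups did not overlap, with oxygen the lower, for 3 of 4, against 3.76% of all tested. The median change of the 4 was log2 −1.19, against 0.06 over all tested probe sets. Since the genes were picked by a comparison with the same control arrays, that choice favours high control signals. These shares and medians are therefore a description. Over all tested probe sets 507 rose and 83 fell under oxygen (221 and 73 after centring each array on its median, which moved all changes by log2 −0.36). The whole-worm RNA does not tell fewer cells that express a gene from less RNA per cell.

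The call of pud-3 was close to the threshold. It ended without control 1 (adjusted p = 0.0503), control 2 (0.0505), control 4 (0.0527), oxygen 3 (0.067) or oxygen 4 (0.0609), and in a fit of the 8 arrays of these groups alone (0.0546), while its log2 change stayed between −4.85 and −3.06 in all alternatives. With the set as a block its adjusted p was 0.0114, and with the replicate number as a block it was 0.0498. Within set 1 the signal of pud-3 was 4.13-fold lower in oxygen, and within set 2 it was 28.8-fold lower (n = 2 and 2 in each).

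**Figure D2:**
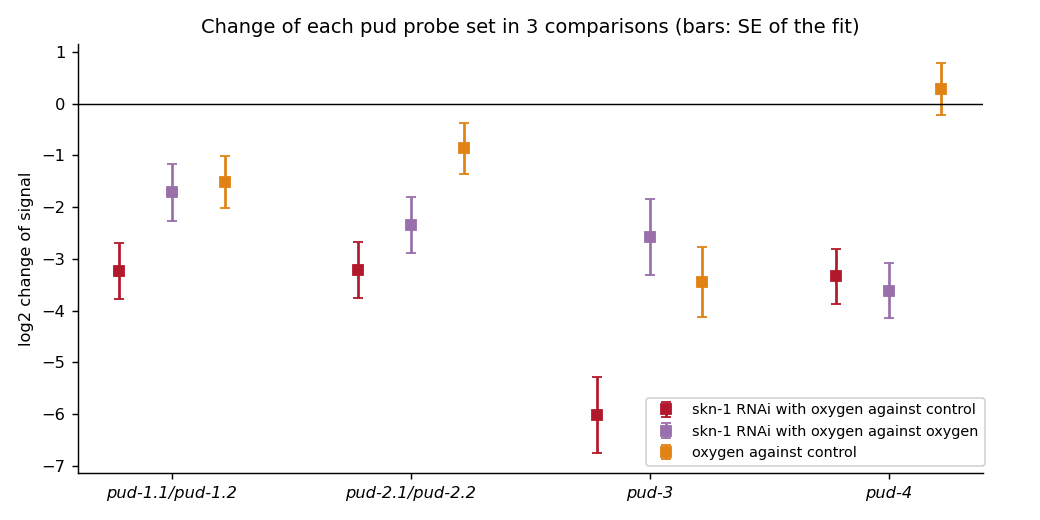
Log2 change of each pud probe set for skn-1 RNAi with oxygen over control, for the same group over oxygen, and for oxygen over control, with bars for the standard error of the fit over 11 arrays. In oxygen against control the changes run from −3.45 for pud-3 to 0.28 for pud-4.

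The ratios between pud probe sets also differed between oxygen and control. For each of the 6 pairs the log2 ratio of the signals on the same array was taken, which does not depend on how an array was scaled. The ratios were examined after the values were seen, on genes picked by a comparison with the same control arrays, so they are a description without a test. The ratio of pud-3 to pud-4 lay at −4.35 to −1.57 in oxygen and at 0.24 to 1.02 in control, a difference of −3.72 between the group means. The ratio of pud-1 to pud-4 lay at −0.44 to 1.48 in oxygen and at 1.97 to 3.09 in control, and that of pud-2 to pud-4 at 0.37 to 2.05 in oxygen and at 2.37 to 2.72 in control. The ratio of pud-2 to pud-3 lay at 3.00 to 5.54 in oxygen and at 1.69 to 2.17 in control. For pud-1 to pud-3 (2.13 to 4.97 in oxygen, 1.71 to 2.07 in control) and pud-1 to pud-2 (−0.94 to −0.57 in oxygen, −0.46 to 0.38 in control) the groups nearly touched. The 6 ratios share probe sets and are not independent.

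**Figure D3:**
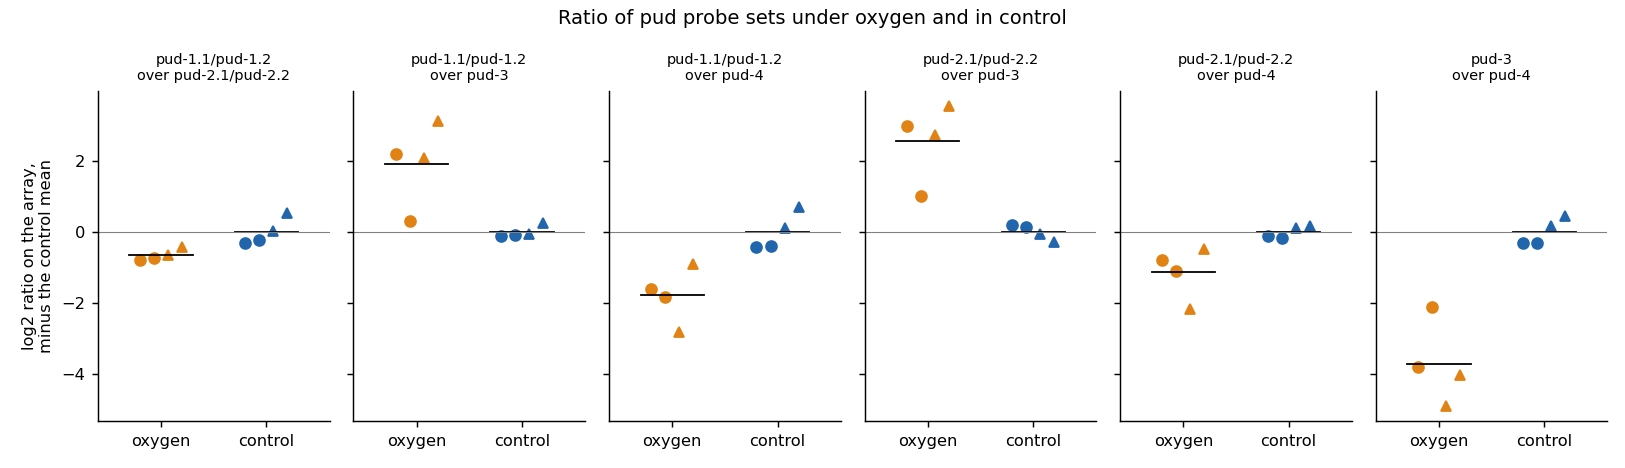
Log2 ratio of 2 pud probe sets on the same array, less its mean over the control arrays, for the 6 pairs in oxygen (left in each panel) and control (right). Circles are set 1 arrays, triangles set 2 arrays and lines group means. The ratio of pud-3 to pud-4 shows the largest gap (−3.72).

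The skn-1 RNAi comparisons chose these genes, so their values are given as a description, without a test. Against oxygen, pud-4 averaged 137 ± 118 in skn-1 RNAi with oxygen (SD, n = 3) and 1371 ± 522 in oxygen (n = 4). The geometric means were 12.2-fold apart (log2 −3.61 ± 0.54 SE). The log2 change was −2.57 ± 0.74 for pud-3, −2.34 ± 0.54 for pud-2 and −1.72 ± 0.55 for pud-1. On oxygen 3 and 4 the pud-3 signal (69.5 and 64.2) was already near the 40th percentile of the array (42.0 and 53.4), and on skn-1 RNAi arrays 1 and 2 it was below it. The dim end of the scale thus limits how large a further decrease of pud-3 could be measured, and pud-3 and pud-4 are not ranked here.

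With the set as a block, the change against oxygen was log2 −3.43 for pud-4, −2.17 for pud-3, −2.13 for pud-2 and −1.70 for pud-1. Within set 2, which holds oxygen 3 and 4, it was −3.26 for pud-4, −1.80 for pud-2, −1.47 for pud-3 and −1.29 for pud-1. Oxygen 3 and 4 had less pud-3 signal than oxygen 1 and 2. In this comparison 3 of 4 pud probe sets had skn-1 RNAi arrays all below the oxygen arrays, against 5.21% of all tested. The median change was log2 −2.46, against 0.22 over all tested. Nothing is read from these counts, since the genes were picked for them.

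Against control, the decrease of pud-3 was the largest of all 15389 tested probe sets. The signal of pud-3 averaged 26.6 ± 14.95 in skn-1 RNAi with oxygen (SD, n = 3) and 1621 ± 523 in control (n = 4), with geometric means 64.8-fold apart (log2 −6.02 ± 0.74). Next in size was clec-56, a C-type lectin gene, at −5.31. With 16 added to each signal before the logarithm, which damps dim values, the change of pud-3 was −5.27.

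The other 3 probe sets had nearly equal decreases against control. The log2 change was −3.34 ± 0.54 for pud-4, −3.23 ± 0.55 for pud-1 and −3.21 ± 0.54 for pud-2, which are 10.1-, 9.39- and 9.23-fold. They ranked 16th, 19th and 21st among all decreases. Mean signals were 137 ± 118 and 1066 ± 94.4 for pud-4, 728 ± 570 and 5958 ± 2748 for pud-1, and 866 ± 781 and 6231 ± 999 for pud-2, each in skn-1 RNAi with oxygen and in control. All 4 were lower without overlap, against 6.69% of all tested, a share from which nothing is read for the same reason. Within set 2 the changes were −6.31 for pud-3, −3.63 for pud-1, −3.33 for pud-2 and −3.32 for pud-4.

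The order of the groups was therefore the same for 3 probe sets, with control highest, oxygen between and skn-1 RNAi with oxygen lowest for pud-1, pud-2 and pud-3. For pud-1 the lower neighbours in this order overlapped. The step from control to oxygen did not pass the test for pud-1 or pud-2 (limma adjusted p = 0.166 and 0.512). For pud-4 oxygen and control did not differ beyond their spread, and skn-1 RNAi with oxygen stood alone below both.

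Within groups, all 4 pud probe sets lay on the same side of their group means on 7 arrays and on both sides on the other 4. On skn-1 RNAi array 3 all 4 were above their group means, by log2 1.21 for pud-1, 1.399 for pud-2, 0.86 for pud-3 and 1.36 for pud-4, while the median of all tested probe sets deviated by −0.01. On skn-1 RNAi arrays 1 and 2 all 4 were below. On oxygen 2 and control 4 all 4 were again above, with mean deviations of 1.03 and 0.48 (the median of all tested probe sets deviated by −0.15 and 0.24). On oxygen 3 the deviations of pud-1, pud-2 and pud-3 were −0.89, −0.89 and −1.05, with pud-4 at 0.14. On oxygen 4 those of pud-3 and pud-4 were −1.16 and −0.84, with pud-2 at −0.19 and pud-1 at 0.04. Oxygen 1 and control 1 also had mixed signs, with deviations of −0.39 to 0.41. Without skn-1 RNAi array 3 the change against control was −6.45 for pud-3, −4.02 for pud-4, −3.91 for pud-2 and −3.84 for pud-1.

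**Figure D4:**
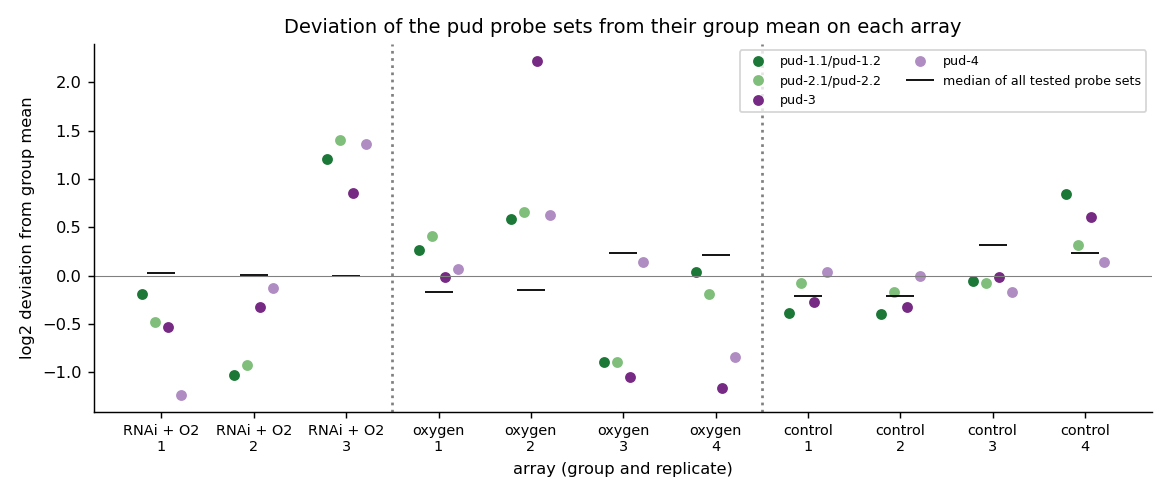
Log2 deviation of each pud probe set from its group mean on the 11 arrays, with short bars for the median deviation of all tested probe sets. All 4 points lie above 0 on skn-1 RNAi array 3, oxygen 2 and control 4.

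After group means were removed, Pearson's r over the 11 arrays was 0.93 between pud-1 and pud-2, and 0.50 to 0.72 for the other 5 pairs. These values are a description, since all probe sets share arrays and scaling. The remaining SD of log2 signal was 1.06 for pud-3 and 0.76 to 0.77 for the other 3, against a median of 0.56 over tested probe sets. The pair with the highest r is the one whose proteins form the heterodimer. Its probe sets were also the brightest, with control means of 5958 and 6231, against 1621 for pud-3 and 1066 for pud-4. The cause of the higher r was not tested.

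The 6 genes lie next to each other on chromosome V. In the RefSeq gene table of assembly WBcel235, used here for gene order only, they run pud-1.2, pud-2.2, pud-3, pud-4, pud-2.1, pud-1.1, and no other annotated gene starts between them. The pud-1 and pud-2 copies thus stand in mirrored order on either side of pud-3 and pud-4. The adjoining 5 genes on either side include 7 of the irld family and 3 with sequence names only. They had 9 probe sets, of which 1 passed the filter on dim probe sets. That one, of the pseudogene Y19D10B.4, averaged 25.6 in skn-1 RNAi with oxygen, 50.8 in oxygen and 54.8 in control. It was not called in oxygen against control (log2 −0.12, limma adjusted p = 0.983) or in the RNAi group against control (log2 −0.73, limma adjusted p = 0.599). No neighbour had a signal above 110.2 on any array. Whether the other 8 neighbouring probe sets changed could not be measured at these signals.

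**Figure D5:**
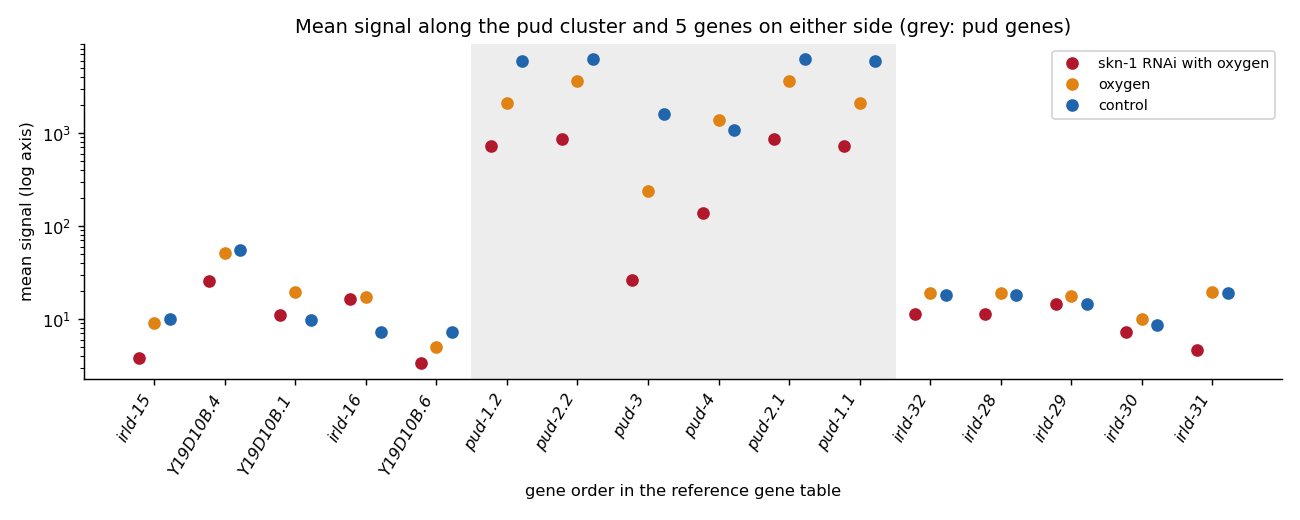
Mean signal, on a logarithmic axis, of the pud genes (grey field) and 5 genes on either side in their order in the gene table, for skn-1 RNAi with oxygen (left in each triple), oxygen and control (right). Genes that share a probe set show the same values. No neighbour exceeds a mean of 54.8.

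The pud genes were named for their rise when insulin-like signalling is weak, so lists of genes known from other work to be raised or lowered by DAF-16 were set beside them. The list of genes raised by DAF-16 held 35 names, of which 18 had a probe set of their own and 16 were tested. Of these 16, 5 rose and 0 fell under oxygen (limma, 9 and 0 at an unadjusted p under 0.05), where 3.29% of tested probe sets rose and 0.539% fell. The median change of this list was log2 1.05, against 0.05 over all genes. That of the pud probe sets was −1.19, but their choice favours high control signals, so nothing is read from the contrast. The risers were mtl-1, a metallothionein gene (log2 4.10), ftn-1, a ferritin gene (4.38), dod-3 (2.80), ctl-2, a catalase gene (1.45), and lys-8, a lysozyme gene (1.08), whose call ended in 14 of 19 alternatives. The count was 3 after median centring and 0 within set 2, but 7 with the signal plus 16 and 8 with the set as a block. With the replicate number as a block it was 6, with lys-7, another lysozyme gene, called too (log2 1.03, limma adjusted p = 0.0219). The gene sod-3, a superoxide dismutase gene, is often used to read DAF-16 activity. It averaged 96.1 ± 28.9 in oxygen and 92.4 ± 17.2 in control (log2 0.02, limma adjusted p = 0.994 in the main fit without a block).

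In skn-1 RNAi with oxygen against control, 3 of the 16 genes raised by DAF-16 rose and 0 fell (limma, 6 and 0 unadjusted), against 2.49% and 0.851% of all tested. They were mtl-1 (log2 3.25), dod-3 (2.31) and hsp-16.2, a small heat shock gene (3.69). Their calls ended in 4, 15 and 9 of 19 alternatives in that order, for dod-3 when any one of 10 arrays was left out. In skn-1 RNAi with oxygen against oxygen 0 of 16 were called (limma, 1 rose and 1 fell unadjusted), against 0.227% of all tested. The medians of the list were 0.89 and −0.14 in these comparisons, where those of the pud probe sets were −3.28 and −2.46. The pud genes were picked for these decreases, so nothing is read from the difference.

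The list of genes lowered by DAF-16 held 11 names, of which 9 were tested. Of these 9, 2 rose and 0 fell under oxygen (limma, 4 and 0 unadjusted), dod-17 (log2 3.06) and dod-22 (1.64), where 3.29% of all tested rose. This count was 4 with the signal plus 16 and with the set as a block, and it went to 0 after median centring, without the dim filter and without control 1, control 2, oxygen 2 or oxygen 4. With the replicate number as a block dod-17 was no longer called (limma adjusted p = 0.0601), while dod-24 (log2 2.25, limma adjusted p = 0.0486) and ins-7, an insulin-like peptide gene (log2 2.05, limma adjusted p = 0.00784), were. In skn-1 RNAi with oxygen against control dod-22 rose (1.66, limma adjusted p = 0.0371), a call that ended in 12 of 19 alternatives. The CUB-like gene dod-24 of this list averaged 28.9 ± 19.3 in skn-1 RNAi with oxygen, 1286 ± 797 in oxygen and 249 ± 79.3 in control. It fell with skn-1 RNAi against oxygen (log2 −5.66, limma adjusted p = 0.00556) and against control (−3.41, limma adjusted p = 0.0195), the only member of the list to do so in either. The call against oxygen ended within set 2 and with only the groups compared, and the call against control within set 2 and without control 2, skn-1 RNAi array 2 or skn-1 RNAi array 3. Its mean was thus higher in oxygen than in control, unlike that of any pud probe set except pud-4.

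Of 11 listed genes of the insulin pathway itself 10 were tested. The receptor gene daf-2 was not, as it had no probe set of its own that passed the dim filter. Of the 10 tested genes 1 rose and 0 fell under oxygen (limma, 2 and 0 unadjusted). It was pqm-1, a zinc finger factor that works opposite DAF-16, which averaged 627 ± 392 in oxygen and 133 ± 5.49 in control (log2 1.98, limma adjusted p = 0.0306). Its call ended in 12 of 19 alternatives, among them median centring and leaving out any one of 9 arrays. The daf-16 signal averaged 600 ± 35.0 in skn-1 RNAi with oxygen, 385 ± 167 in oxygen and 369 ± 179 in control. No tested gene of the pathway was called in skn-1 RNAi with oxygen against oxygen (limma, 0 unadjusted) or against control (3 rose and 0 fell unadjusted).

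Markers of the tissues in which PUD-1 and PUD-2 are abundant were read beside these results. The summed signal of 13 intestinal markers was 16303 to 21543 in skn-1 RNAi with oxygen, 17639 to 22793 in oxygen and 17934 to 31922 in control. Under oxygen 3 of these 13 fell and 0 rose, pept-1, nhx-2 and act-5 (limma, 5 fell and 1 rose unadjusted), where 0.539% of all tested fell. The list's median was log2 −0.16, against 0.05 over all genes. The call of act-5 ended in 10 of 19 alternatives. In skn-1 RNAi with oxygen against control 1 fell, nhx-2 (a call that ended in 14 of 19 alternatives), with 4 lower and 1 higher unadjusted, where 0.851% of all tested fell. The list's median was −0.26 there, against 0.32 over all genes. In skn-1 RNAi with oxygen against oxygen 0 were called (limma, 1 higher unadjusted), with a median of 0.09 against 0.19. These medians are from the fit without a block, and those over all genes depend on the set. With the set as a block, the median over all tested probe sets went from 0.355 to 0.0901 against control. Against oxygen it went from 0.2228 to 0.0158. The summed signal of 10 epidermal markers was 2708 to 4549 in skn-1 RNAi with oxygen, 3291 to 4865 in oxygen and 3967 to 6447 in control. None of these 10 was called in any comparison (limma, 1 unadjusted under oxygen, lower, and 0 in the others). Loss of a marker was not tested, since a signal of 0 was set to 0.1 and only probe sets that passed the dim filter were read. The epidermal medians were 0.11 against control and 0.03 against oxygen with skn-1 RNAi, and 0.06 in oxygen against control. The part of these tissues in the pud decreases was not tested.

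Among markers of other tissues, summed signals of 7 body wall muscle genes were 15221 to 18596 in skn-1 RNAi with oxygen, 8794 to 14166 in oxygen and 7855 to 13439 in control. Those of 7 sperm genes were 2215 to 3023, 428 to 2673 and 226.7 to 2184 in the same groups. Those of 10 oocyte and germ line genes were 26070 to 26794, 20442 to 27136 and 25247 to 40179. Those of 8 neuronal genes were 3464 to 4177, 2767 to 4492 and 2020 to 3217, and those of 5 pharyngeal genes were 589 to 815, 322 to 696 and 246.7 to 725. Of these genes glh-1, a germ line helicase gene, was the one called in oxygen against control (log2 −0.97, limma adjusted p = 0.0257), and its call ended in 11 of 19 alternatives. In skn-1 RNAi with oxygen against control it was unc-89, a muscle gene (log2 1.45, limma adjusted p = 0.0452), with a call that ended in 12. Their part in the results was not tested.

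The genes most like the pud genes in pattern were found by Pearson's r, over the 11 arrays, with the mean profile of the 4 centred pud probe sets. The pud probe sets themselves had r of 0.97 for pud-1, 0.98 for pud-2, 0.95 for pud-3 and 0.88 for pud-4. Of 14448 tested probe sets with 1 other gene, 33 had an r of at least 0.9. The 6 highest were qdpr-1, a dihydropteridine reductase gene (0.96), C55B7.11 (0.96), cpz-1, a cathepsin Z-like protease gene (0.95), C26B9.5 (0.95), txt-4 (0.95) and Y57G11C.36 (0.95). With group means removed their r was 0.63, 0.64, 0.79, 0.66, 0.80 and 0.64 in that order. These values are a description over arrays that share sets and scaling, and the genes were chosen by them.

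The like genes shared the order of the groups but not the size of the change. The txt-4 signal averaged 207 ± 116 in skn-1 RNAi with oxygen, 516 ± 223 in oxygen and 1053 ± 274 in control, a log2 difference of −2.45 between skn-1 RNAi with oxygen and control. That of qdpr-1 averaged 687 ± 106, 1196 ± 137 and 1668 ± 193 in the same groups, a difference of −1.28. For the other 4 this difference was −1.45 to −0.77, where that of the 4 pud probe sets was −6.02 to −3.21. The pud genes were chosen for this decrease, and the like genes by r, which does not depend on size. Nothing is read from the difference in size.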

How the data were processed

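RNA of 11 samples was measured on Affymetrix arrays, 1 per sample. The deposited intensities are MAS5 signals from GCOS 1.4, per the submitters' processing notes. Scaling target and background settings are not given in the sources used here. The 77 manufacturer's controls were left out, and the 1 signal of 0 was set to 0.1. Probe sets at or above their array's 40th percentile on at least 3 of 11 arrays were tested (15389). Log2 signals were fitted with limma 3.58.1 in R 4.3.3 (lmFit, eBayes) over the 11 arrays, with group as the only term, two-sided, with Benjamini-Hochberg adjustment over all tested probe sets and a threshold of 0.05. The script was tested on simulated data. The number of arrays limits the precision.

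Genes were named from GEO's platform annotation, where 20766 probe sets had 1 gene, 887 several and 895 none. Each listed gene was read from its brightest tested probe set. The members and lists were chosen with earlier results of these data known. The genes named are all 6 members, skn-1 and gst-4 as a check, the 6 genes most like the members, called neighbours and up to 4 genes per list with the smallest adjusted p. Outside this rule, lys-7, lys-8, dod-24, ins-7, sod-3, daf-16, hsp-16.2, nhx-2, pept-1, act-5, glh-1, unc-89, dod-22, clec-56 and Y19D10B.4 were named after their values were seen.

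Samples with the same replicate number in different groups were checked for pairing. The correlation of their deviations over tested probe sets was over 0.1 in all 4 pairs of oxygen and control (0.45 to 0.57) and in 0 of 6 pairs with skn-1 RNAi (−0.128 to −0.0045). The numbers were thus treated as a possible pairing of oxygen with control and not of the skn-1 RNAi arrays. Oxygen and control arrays of the same set but other numbers had 0.35 to 0.53, and the labels name no shared source. The check therefore does not tell pairing by number from sharing a set, and the main fit had no block. Alternatives were no dim filter, quantile normalization, median centring, log2 of the signal plus 16, a replicate block, the set as a block, set 2 alone, only the groups compared, and leaving out each array.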

Additional observations from a re-analysis of the deposited data

Results flagged for a closer look

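In oxygen, the pud-3 signal of replicate 2, 671, stood apart from the other 3 arrays (142.4, 69.5 and 64.2). Its gap to the nearest of them was 0.871 of the group's range, above Dixon's critical value of 0.829 for 4 samples, while on the log2 scale the gap was 0.66 and below it. Of 8 groups of 4 arrays examined (4 probe sets in oxygen and in control), this was the one above that value. Chance flags about 1 in 20 for a single group, and so more often at least 1 among 8. Without this array the log2 change of pud-3 in oxygen against control was −4.19 (limma adjusted p = 0.0015), against −3.45 with it. The other 3 pud probe sets were also at their highest oxygen signal on this array.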

How the results depend on the processing

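The log2 changes of the pud probe sets kept their direction in all 19 alternatives of each comparison, except that pud-4 in oxygen against control, which was not called, changed sign after median centring (−0.084) and within set 2 (−0.059). The 1 pud probe set called in oxygen against control, pud-3, was not called when only the groups compared were fitted (0 called, unadjusted p of pud-3 0.00133), and 0 to 1 were called when single arrays were left out. The median change of the 4 in that comparison was −1.93 within set 2, against −1.19. For pud-3 the change with skn-1 RNAi against oxygen was −1.47 within set 2, against −2.57. The share of all tested probe sets called in oxygen against control was 3.83%, and 1.91% after median centring, 9.26% with the set block, 2.25% with only the groups compared, and 2.14% to 3.79% without single arrays. With skn-1 RNAi against oxygen it was 0.227%, and 0.0887% without the dim filter, 0.39% after quantile normalization, 0.435% with the signal plus 16, 0.754% with the set block, 0.117% within set 2, 0.143% with only the groups compared, and 0.104% to 0.37% without single arrays. With skn-1 RNAi against control it was 3.34%, and 1.16% without the dim filter, 1.4% after median centring, 1.86% within set 2, and 0.773% to 4.07% without single arrays. The replicate block gave 10.8% there. In oxygen against control, where the numbers may pair the samples, the replicate block gave 4.28%. It changed the call of no pud probe set (pud-3 limma adjusted p = 0.0498). Among the listed genes and markers it changed the calls of lys-7, dod-17, dod-24 and ins-7. Of the probe sets called with skn-1 RNAi against control, 25.5% were lower, 48.8% after median centring and 51.4% after quantile normalization. Of those called with skn-1 RNAi against oxygen, 80.0% were lower (92.9% after median centring). In oxygen against control this share was 14.1%, and 24.8% after median centring. The causes were not tested. All sizes rest on 3 or 4 arrays a group, and the pud-3 signal in skn-1 RNAi with oxygen lay near the dim end of the arrays.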

Other observations

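The log2 change in oxygen against control was lower in set 2 than in set 1, by −1.64 for pud-1, −1.32 for pud-2, −2.80 for pud-3 and −0.67 for pud-4. For pud-4 it was 0.61 in set 1 and −0.06 in set 2, and for the other 3 it was below 0 in both sets. In an interaction fit of the 8 control and oxygen arrays, chosen after the data were seen, none of these differences passed (limma adjusted p = 0.994 each, unadjusted 0.0365, 0.0262, 0.0274 and 0.273). Over all tested probe sets 0 passed in limma, with 655 at an unadjusted p under 0.05.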
